A study of Mus musculus with 10 samples.

Results

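AHR ChIP-seq peaks were examined at 9 genes of the NF-kB pathway. They were Nfkbia, Nfkbib, Nfkbie and Nfkbiz of the inhibitor of kB (IkB) family, the subunits Nfkb1, Nfkb2, Rela and Relb, and Tnfaip3. A peak was counted for a gene when it overlapped the gene body (GENCODE M21, mm10) or the 50 kb on either side of it. This gave 63 of the 123652 peaks in the wild type list and 3 of the 1931 peaks in the AHR KO list. The genes were chosen on the score of a strong wild type peak near Nfkbia, so that score and the peak counts are descriptions, and no p-value is given for them. Across the edge of the span, the farthest peak still inside lay 49.9 kb from Nfkbib with a score of 5.27, and the closest one outside lay 50.5 kb from Nfkb2 with a score of 5.32.

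Chromatin came from mouse colon organoids kept in stem cell condition in WENR medium, which, by the study's methods, holds Wnt3a, EGF, Noggin, R-spondin1, the p38 inhibitor SB202190, the ALK5 inhibitor A83-01 and nicotinamide. FICZ, a ligand of AHR, was given at 5 nM for 1 h to both genotypes, so no untreated culture was compared. There were 4 wild type libraries of AHR ChIP, numbered alike with 4 inputs, and for AHR KO there was a single ChIP and a single input. The methods describe the deficient organoids as grown from mice carrying Villin-Cre and Ahr fl/fl, a deletion driven in the intestinal epithelium, while the labels state only AHR KO. The methods speak of 4 biological replicates, but the labels do not say how many KO cultures stand behind the single library, and the ages of the mice were not given in the sources used here. Each genotype has 1 list of peaks, each with a score given by the authors, the fold enrichment of the ChIP pileup over background. No value per culture was analysed here and no difference between genotypes has a replicate check. Peak lists hold no expression, so neither the cell type nor the loss of AHR was checked against marker genes.

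NF-kB acts as a dimer of Rel family proteins. In resting cells the inhibitors of kB (IkB) hold the dimers in the cytoplasm, and the IKK kinase complex frees them by marking IkB for breakdown. Several genes of the pathway, Nfkbia and Tnfaip3 among them, are themselves switched on by NF-kB and so form negative feedback. In the gut epithelium the pathway answers cytokines and microbial products. AHR, which binds DNA with its partner ARNT, has been described as a binding partner of RelA and of RelB.

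The strongest of the 63 peaks lay at Nfkbia, the gene of IkB-alpha. The gene lies on the minus strand of chromosome 12, at chr12:55489410-55492647. The peak, chr12:55464577-55465130, was intergenic, 24.6 kb past the 3' end of the gene and 27.8 kb from its start, and Nfkbia was the nearest protein-coding start. It had a score of 35.9, rank 5 of the 123366 wild type peaks on the assembled chromosomes, and a pileup of at least 106 fragments, reading the score as a ratio over a background no lower than the genome-wide one. The 300 bases around its midpoint are shown because the peak had the highest score at any of the 9 genes. The list gives no summit, so where in the peak the signal was strongest is not known. The bases are given as the plus strand of GRCm38, chr12:55464704-55465003. Capitals mark the AHR core word GCGTG on either strand (read as CACGC where it lies on the minus strand).
Nfkbia highest: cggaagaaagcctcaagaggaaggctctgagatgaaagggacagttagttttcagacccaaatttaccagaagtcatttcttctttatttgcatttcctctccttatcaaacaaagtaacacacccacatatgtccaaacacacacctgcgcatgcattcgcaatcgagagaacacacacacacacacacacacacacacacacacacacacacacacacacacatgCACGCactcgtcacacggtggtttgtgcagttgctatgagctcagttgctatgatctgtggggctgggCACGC

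A CA run of 52 bases stands to the right of the midpoint, with a core word just after it. Outside the run the peak was mostly unmasked, and only 22.4% of the whole peak was soft-masked as repeat, against 51.5% of the 200 bp window at its centre. The full word TNGCGTG, in which N is any base, occurred once in the peak, 149 bp from the midpoint. It lay in unmasked sequence on the minus strand at chr12:55464999-55465005, and no other peak of the 9 genes held it. Searched over whole peaks, the word was thus in 1 of 63 peaks (1.59%), against 3.85% of all wild type peaks. The Nfkbia word is shown with 30 bases on each side (chr12:55464969-55465035), the word itself in capitals.
Nfkbia TNGCGTG: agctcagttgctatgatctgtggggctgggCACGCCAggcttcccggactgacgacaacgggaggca

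The other 6 peaks at Nfkbia were far weaker. They had scores of 4.10, 4.54, 5.59, 5.65, 5.92 and 8.07. The last of these, 46.0 kb upstream at chr12:55538337-55538943, was a CA-rich repeat that overlapped an AHR KO peak, and the remaining 5 were below 6. The peak closest to the Nfkbia start lay 14.2 kb upstream with a score of 5.65, and none fell in the gene body.

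**Figure D1:**
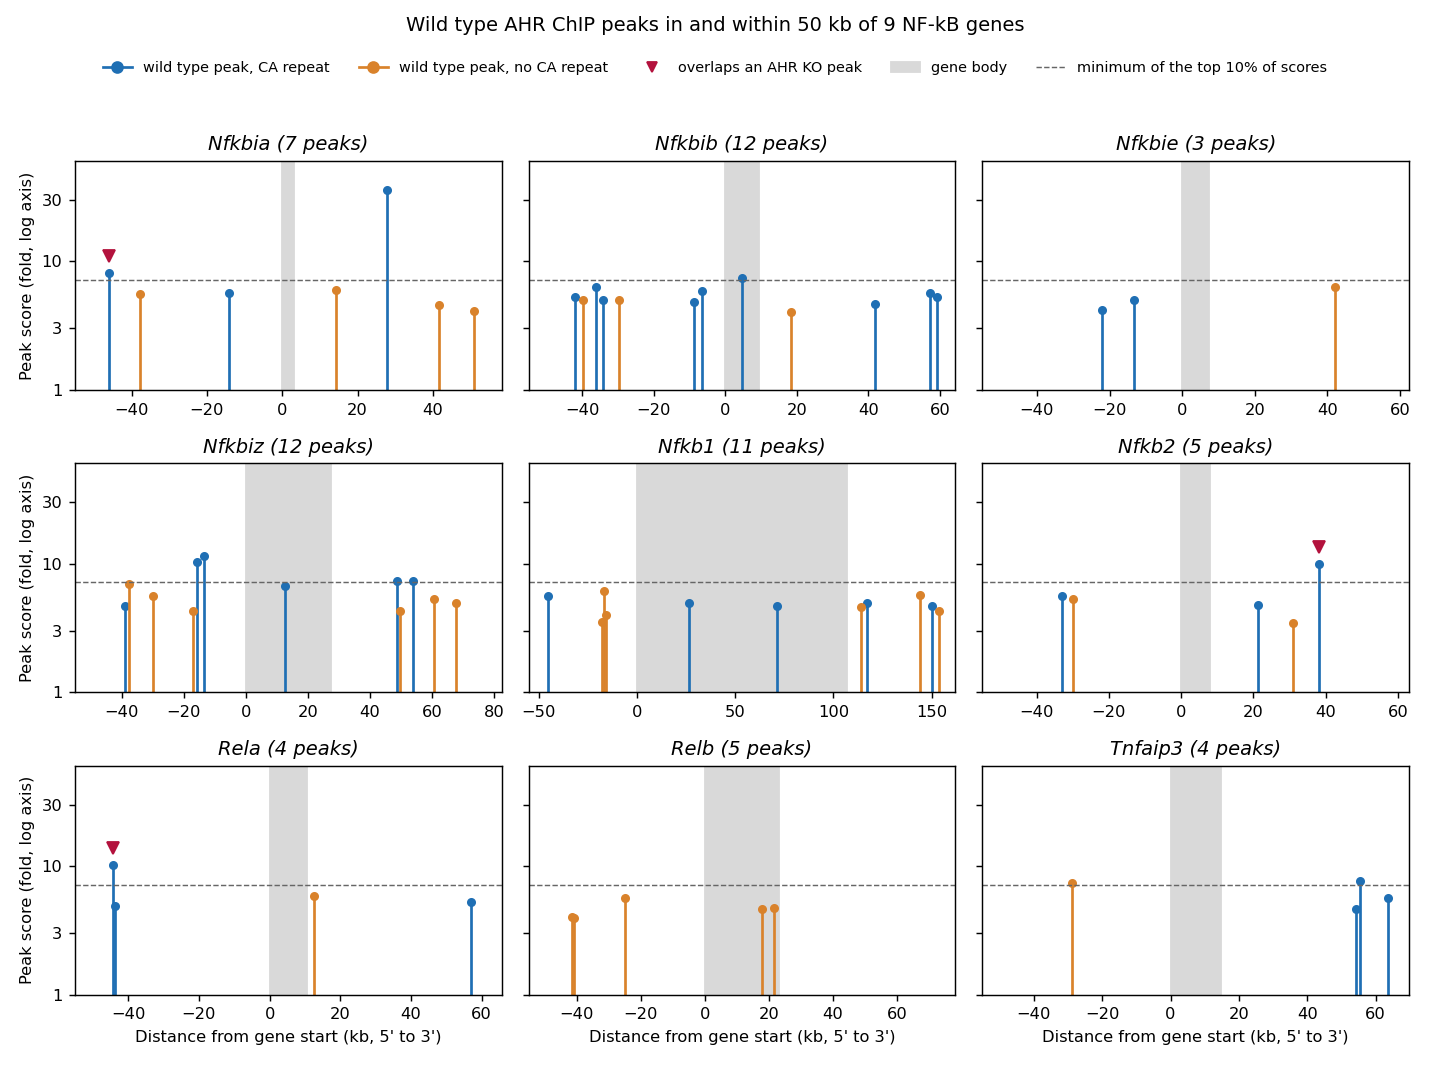
Score (log axis, fold enrichment given by the authors) of each of the 63 wild type peaks against the distance of its midpoint from the gene start in kb, in the direction of transcription. Blue and orange stand for peaks with and without a CA repeat, grey for the gene body, triangles for the 3 peaks that overlapped an AHR KO peak, and the dashed line for the score of 7.14 that opens the top 10% of the list. The Nfkbia site at 35.9 stands far above the other 62 peaks, and 8 of the 9 genes have no peak within 10 kb of the start.

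Among the other IkB family genes, Nfkbiz carried the higher scores. Nfkbiz encodes IkB-zeta, an inducible nuclear member of the IkB family that works with NF-kB at secondary response genes. It had 12 peaks, with a pair of scores 11.4 (rank 557) and 10.3 (rank 1189), 13.4 and 15.8 kb upstream of its start. Both were wide, at 705 and 1108 bp, lay in an intron of the neighbouring gene Nxpe3 and overlapped no AHR KO peak. A pair of peaks past the 3' end each had a score of 7.31, and the peak in the gene's own intron, 12.6 kb from the start, had 6.65. The peaks at 11.4 and 10.3 were both CA repeats, and their 200 bp windows were 100% soft-masked and held no core word. Each of these peaks held 1 core word outside its window.

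Nfkbib, which encodes IkB-beta, also had 12 peaks, but in a span with 8 protein-coding starts. Its highest peak, with a score of 7.44, lay in its own intron, 4.63 kb from its start and closer still to the start of the deacetylase gene Sirt2, at 3857 bp. That peak was the only one of the 63 in the top 10% of scores and within 10 kb of the start of its gene. A further 2 peaks lay 6.54 and 8.78 kb upstream, inside Sirt2, with scores of 5.86 and 4.81. Of the 12 peaks, 10 were nearer to the start of another protein-coding gene, among them the least masked window of all 63 (24.0% soft-masked, score 6.31), which lay 4816 bp from the start of Hnrnpl. No core word occurred in the window of the intronic peak.

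Nfkbie, the gene of IkB-epsilon, had the fewest peaks. The 3 peaks had scores of 4.15, 5.02 and 6.31 and lay 22.1 and 13.2 kb upstream and 42.1 kb downstream of its start. Each was nearer to another gene, namely Tcte1, Tmem151b and Slc29a1.

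The highest scores at the 4 subunit genes ranged from 5.65 (Relb) to 10.2 (Rela), well below that of Nfkbia. Nfkb1 encodes p105, the precursor of p50, and is the longest of the 9 genes at 107 kb. Its 11 peaks had scores from 3.52 to 6.08, and none was in the top 10%. A pair lay in the gene body, with scores of 4.98 at 26.5 kb and 4.65 at 71.4 kb from the start. The highest, at chr3:135707887-135708119, lay 16.5 kb upstream with a window that was 100% soft-masked and held no CA run, and the peak nearest to the start, 15.8 kb upstream, had a score of 3.99. The window of the highest peak (plus strand, chr3:135707903-135708102) is given to contrast with the CA repeats.
Nfkb1 highest: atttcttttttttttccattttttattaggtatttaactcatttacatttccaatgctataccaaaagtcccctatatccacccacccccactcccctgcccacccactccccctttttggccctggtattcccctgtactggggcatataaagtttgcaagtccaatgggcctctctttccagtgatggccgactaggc

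Nfkb2 encodes p100, the precursor of p52, and Rela encodes p65, the transactivating partner of p50. Nfkb2 had 5 peaks, of which 4 had scores from 3.44 to 5.65, and the nearest to the start, 21.4 kb away in an intron of Psd, had 4.74. The other, at chr19:46342083-46342818, scored 9.97 (rank 1318), 38.1 kb downstream of the start in an intron of Mfsd13a. Rela had 4 peaks, with scores of 4.87, 5.27, 5.89 and 10.2, the one of 5.89 being nearest to the start, 12.7 kb away. The highest, at chr19:5592853-5593503 (rank 1262), lay 44.3 kb upstream, nearer to Rnaseh2c than to Rela. At both genes the highest peak was far from the start and was shared with the AHR KO list.

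Relb, the gene of the subunit that pairs with p52, had 5 peaks with scores of 3.92, 4.03, 4.65, 4.69 and 5.65. Those with 4.65 and 4.69 lay in its own introns, 18.0 and 21.6 kb from the start. None of the 5 was a CA repeat, none was in the top 10%, and all were nearer to the start of another gene (Clasrp or Clptm1).

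Tnfaip3 encodes A20, a ubiquitin-editing enzyme that shuts down NF-kB signalling. Its 4 peaks had scores of 4.65, 5.65, 7.33 and 7.64, and Tnfaip3 was the nearest protein-coding gene to all 4. The highest, at chr10:18960247-18960486, lay 55.3 kb from the start and past the 3' end of the gene, while the one at 7.33 lay 28.7 kb upstream and held no CA repeat. The window of the highest peak (plus strand, chr10:18960267-18960466) is shown because, as at Nfkbia, core words stand beside a long CA or TG run, here of 55 bases. In it a pair of cores on opposite strands overlap just before the run.
Tnfaip3 highest: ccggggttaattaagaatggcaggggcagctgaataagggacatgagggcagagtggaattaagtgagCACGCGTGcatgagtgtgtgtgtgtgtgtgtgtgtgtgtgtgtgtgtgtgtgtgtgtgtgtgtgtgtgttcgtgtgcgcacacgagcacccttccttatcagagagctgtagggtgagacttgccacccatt

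**Figure D2:**
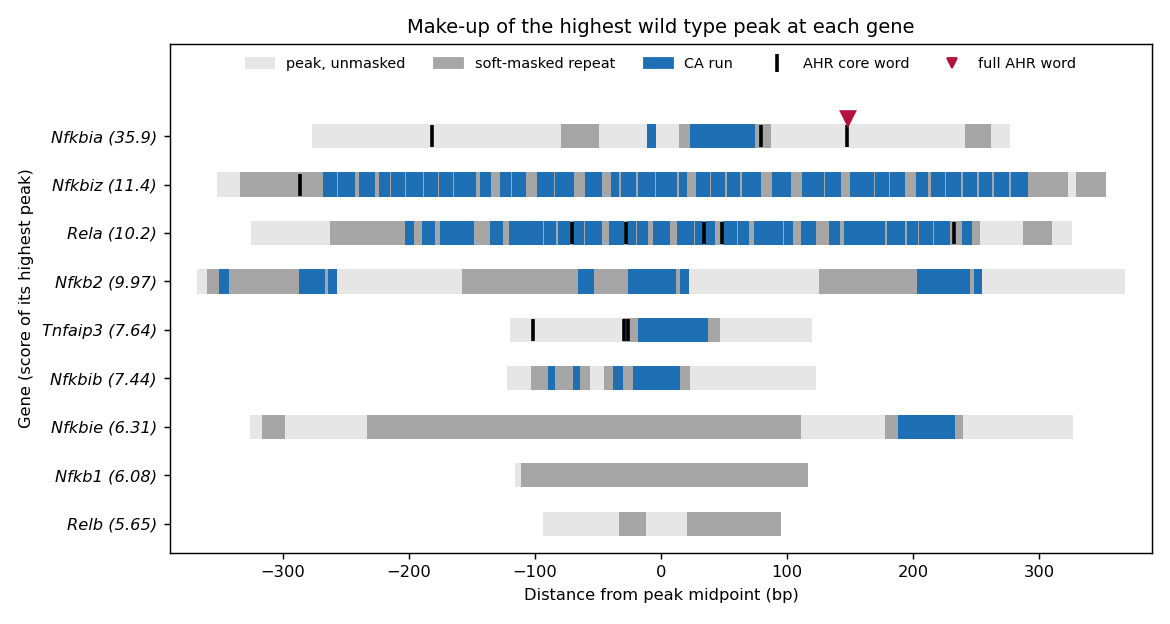
Make-up of the highest wild type peak at each gene, drawn to scale in bp from the peak midpoint, with genes ordered by the score in brackets. Light grey is unmasked sequence, dark grey is soft-masked repeat, blue is a run of CA or TG of at least 6 bases, black ticks are the AHR core word and the triangle is the full AHR word, which occurs in the Nfkbia peak alone among these 9. Of all wild type peaks, 3.85% held the full word anywhere in the peak.

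Few peaks lay close to the starts of the 9 genes. None of them had a wild type peak with its midpoint at a promoter (from 1 kb upstream to 100 bp downstream of any annotated start), against 9.27% of the 21938 protein-coding genes. With 2 kb on either side of any annotated start, 1 of the 9 had one, the peak of score 4.65 in the body of Nfkb1 near the start of a shorter transcript, against 25% of protein-coding genes. Only Nfkbib had a peak midpoint within 10 kb of the gene start, against 58.0% of all protein-coding genes. Peaks in the gene body were found at Nfkbib, Nfkbiz, Nfkb1 and Relb, 4 of 9 genes, against 49.7%. The peak nearest to the start was 4.63 kb away at Nfkbib and from 12.6 kb (Nfkbiz) to 28.7 kb (Tnfaip3) away at the other genes. Of the 63 peaks, 32 were intergenic, 26 were intronic and 5 exonic, in genes of any type, and 34 were nearer to the start of another protein-coding gene than to that of the member. The same shares over the whole list are not given here, so these counts of placement are descriptions only.

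Having any peak did not set the genes apart. All 9 had a wild type peak by the rule, as did 97.6% of protein-coding genes, and the spans held 56.7 peaks per Mb in sum, against 45.3 over the assembled chromosomes and 48.2 summed over the spans of protein-coding genes. The direction turned with the width of the span, since with 10 kb on either side the 9 genes had 30.7 peaks per Mb and protein-coding genes 45.3. As medians over genes with 50 kb, the values were 46.3 and 46.8. A peak in the top 10% of scores was present at 6 of 9 genes, against 48.1%, and a score of at least 10 at 3 of 9 (Nfkbia, Nfkbiz and Rela), against 9.17%. Over the 63 peaks the median score was 5.27, while that of the list was 5.32, and 33 peaks lay below the latter. With 9 genes, 1 gene more or less changes such a share by a large amount, and no test was made.

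**Figure D3:**
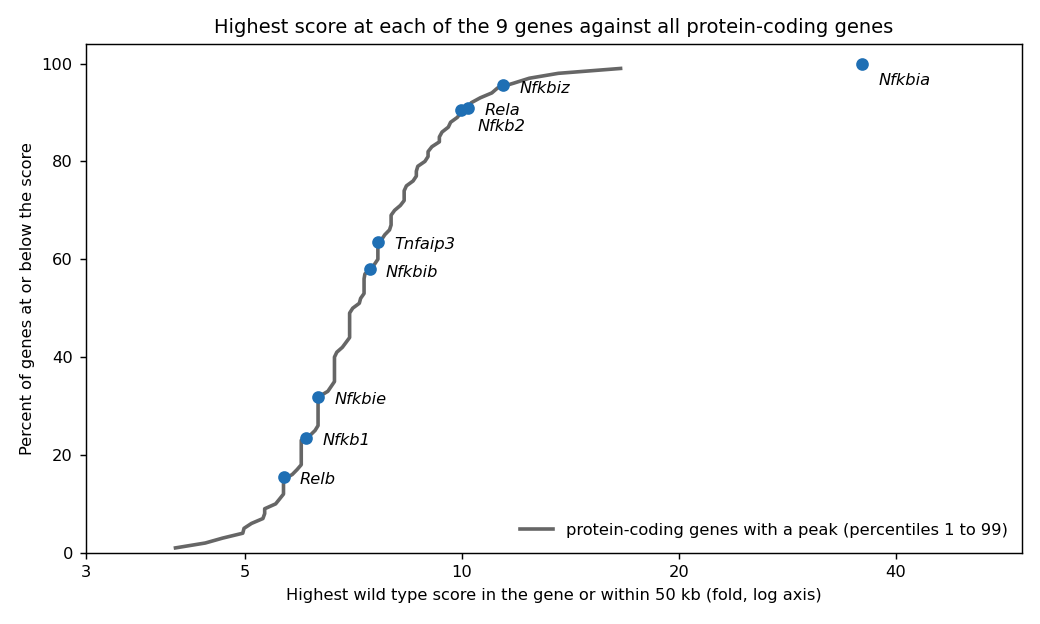
Highest wild type score in the gene or within 50 kb (x axis, log scale) against the percent of protein-coding genes with a peak whose highest score is at or below it (y axis). The curve covers percentiles 1 to 99, and points are the 9 genes. Nfkbia, rank 11 among the genes, lies past the end of the curve, Nfkbiz, Rela and Nfkb2 lie above 90%, and Nfkbie, Nfkb1 and Relb lie below 32%.

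Most of the 63 windows were repeat sequence, much as in the list as a whole. Windows of 200 bp around the midpoints were at least 50% soft-masked in 49 of 63 peaks (77.8%, 95% Wilson interval 66.1 to 86.3), against 86.0% of all wild type peaks. CA repeats, defined by 3 or more separate CACACA or TGTGTG words, were found in 34 of 63 (54.0%, interval 41.8 to 65.7) against 57.3%. In these 34 windows the longest unbroken CA or TG run measured from 11 to 55 bases, with a median of 35.5. Peaks with a CA repeat had a median score of 5.65 and those without it 4.98, and in the list the same medians were 5.65 and 4.65. Of the 11 peaks in the top 10%, 10 were CA repeats, near the 88.7% of all top 10% peaks, and the exception was the upstream peak of Tnfaip3. Only 1 of the 63 windows was neither a CA repeat nor at least 50% soft-masked, so that 62 of 63 (98.4%) met at least 1 of these criteria, against 98.8% of the list.

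The full word to which AHR binds with ARNT was sparse. TNGCGTG was found in 0 of 63 windows, which allows a share of up to 4.76% when 3 counts of 63 are taken as the limit (the upper end of the Wilson interval is 5.75%), and in 2.84% of all wild type windows. No member had a peak with that word in its window, against 15.5% of protein-coding genes. The core GCGTG alone, searched on both strands, was found in 17 of 63 windows (27.0%, interval 17.6 to 39.0) against 17.7% in the list. It occurred in 7 of 34 CA repeats (20.6%) and 10 of 29 other windows (34.5%, interval 19.9 to 52.7), while in the list these shares were 21.2% and 12.9%. The share outside CA repeats was thus the higher of the 2 at these genes and the lower in the list, which is a description over few peaks. Wilson intervals cover counting error only, and peaks are not replicates.

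Words of other factors were also rare. The kB consensus to which NF-kB binds was found in 0 of 63 windows and in 0.564% of the list, and GGGTGCAT, a word described for RelB with AHR, in 0 of 63 and 0.378%. The AP-1 word TGACTCA, searched on both strands with its complement TGAGTCA, occurred in 2 windows (3.17%, against 1.28%), 1 each at Nfkbib and Nfkbiz. The TEAD word GGAATG occurred in 3 (4.76%, against 7.24%), 1 each at Nfkbiz, Nfkb1 and Relb. For the words with a count of 0, the limit of 4.76% lies above the list's share.

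**Figure D4:**
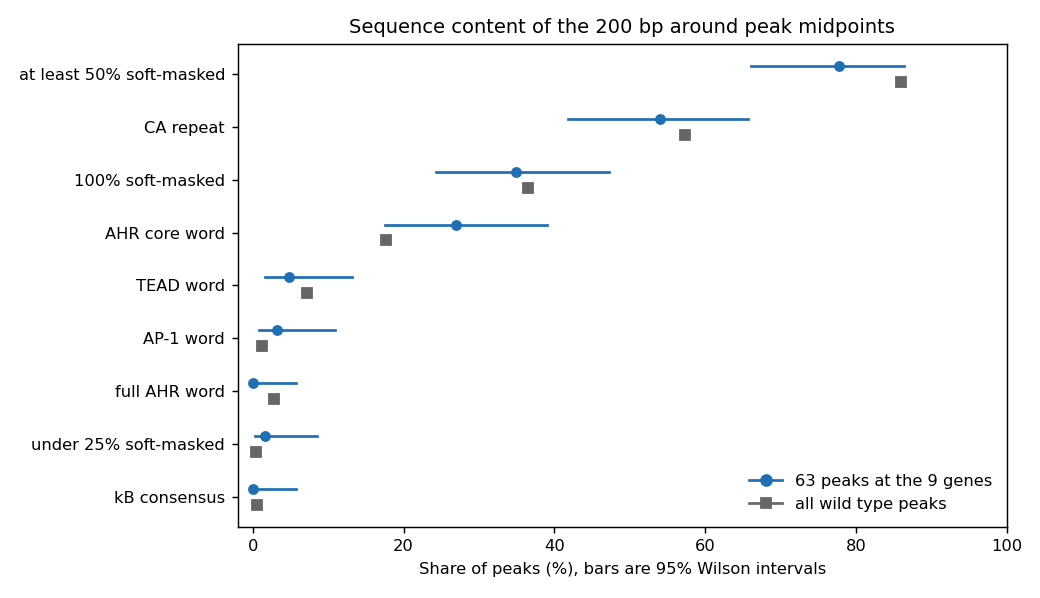
Share of peaks (x axis, %) with each sequence feature in the 200 bp around the midpoint, for the 63 peaks at the 9 genes (blue circles) and for all wild type peaks (grey squares), with 95% Wilson intervals as bars; those of the full list are narrower than the symbols. The interval of the 63 peaks takes in the list's value for each of the 9 features plotted, narrowly so for the AHR core word, where it starts at 17.6% and the list has 17.7%, and for windows at least 50% soft-masked, where it ends at 86.3% and the list has 86.0%.

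The AHR KO list, from organoids labelled AHR KO and the same antibody, held 3 peaks in the spans, 1 each at Nfkbia, Nfkb2 and Rela. An AHR KO peak was thus present at 3 of 9 genes, against 10.5% of protein-coding genes. Their scores were 7.89 at Nfkbia (rank 356 of 1873 KO peaks on assembled chromosomes), 9.32 at Nfkb2 (rank 116) and 10.6 at Rela (rank 58), and each overlapped 1 wild type peak. This makes 4.76% of the 63 peaks shared (interval 1.63 to 13.1), against 1.46% of the list. The scores of the 2 lists depend on depth, and no peak's score in one list is compared with its score in the other. All 3 shared sites were CA repeats far from the gene start. All 3 wild type peaks were also in the top 10% of scores, where 88.7% of the list's peaks were CA repeats. At 8 of the 9 genes no wild type peak at all lay within 10 kb of the start. The share of CA repeats among all shared peaks is not given here. The wild type windows are printed to show the build-up of the shared sites. They lie, in this order, at chr12:55538540-55538739, chr19:46342351-46342550 and chr19:5593078-5593277 (plus strand).
Nfkbia shared with AHR KO: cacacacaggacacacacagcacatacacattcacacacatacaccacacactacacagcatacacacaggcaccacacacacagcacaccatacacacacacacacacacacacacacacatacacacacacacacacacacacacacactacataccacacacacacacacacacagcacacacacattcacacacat
Nfkb2 shared with AHR KO: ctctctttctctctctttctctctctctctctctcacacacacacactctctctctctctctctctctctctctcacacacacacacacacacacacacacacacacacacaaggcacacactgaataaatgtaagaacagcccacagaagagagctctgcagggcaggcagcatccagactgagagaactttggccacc
Rela shared with AHR KO: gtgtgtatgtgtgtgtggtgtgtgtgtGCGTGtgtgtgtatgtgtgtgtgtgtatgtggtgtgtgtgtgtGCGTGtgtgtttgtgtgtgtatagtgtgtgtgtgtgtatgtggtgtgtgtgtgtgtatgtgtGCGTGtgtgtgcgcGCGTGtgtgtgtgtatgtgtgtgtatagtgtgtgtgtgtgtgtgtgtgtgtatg

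The Rela window holds 4 core words, all inside the TG repeat, whereas the other 2 windows hold none. The strong Nfkbia site overlapped no AHR KO peak. The background read from the scores was lower in the KO list, 0.287 fragments against 2.01 in the wild type list (1.17 and 11.2 per kb, a ratio of 9.57), which may pool several libraries. KO peaks on the genome-wide background had a lowest pileup of 5 and a median of 8. On that background a pileup of 8 gives a score of 6.99, and this number served to set a minimum within the wild type list. Of the 63 wild type peaks 11 reached it, of which 3 were shared and 8 were not. In the whole list 8.66% of the 12833 peaks that reached it were shared. By the same arithmetic a score of 35.9, that of the strong Nfkbia site, would stand for 45.2 fragments on the KO background. The gene was chosen on that score, and the KO background was read from 17.7% of KO peaks. Whether depth bears on the missing KO peak at this site was not tested. With 1 KO library and no replicate, the lack of a KO peak at any site has no test as a difference between genotypes.

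To place the 9 genes in their pathway, 41 further genes were taken through the same rule. All 41 had a wild type peak, and 19 (46.3%) had a peak in the top 10% of scores, near the 48.1% of all protein-coding genes. The median of the highest scores was 6.98 over these genes, 7.05 over all protein-coding genes with a peak and 7.64 over the 9. TNGCGTG in a window was found at 5 of 41 (12.2%, against 15.5%), a promoter peak at 6 of 41 (14.6%, against 9.27%) and an AHR KO peak at 4 of 41 (9.76%, against 10.5%). Apart from the promoter peaks, these shares of the wider list were within a few percentage points of the background.

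The highest score in it was that of Bcl3, an atypical nuclear IkB protein, at 15 (rank 143), 45.1 kb upstream and nearer to Ceacam16. Ikbkb, a catalytic IKK subunit that marks IkB for breakdown, reached 10.3 at a fully soft-masked CA repeat 73.6 kb from its start, nearer to Dkk4. Bcl10, an adaptor of the CARD complexes, had 10.1, at 49.1 kb upstream. These were the only 3 of the 41 with a score of at least 10 (7.32%, against 9.17% of protein-coding genes).

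Below them came Icam1, an adhesion molecule and NF-kB target, with 9.30, and the scaffold gene Card10 with 8.97. The signalling adaptor Traf3 and the deubiquitinase Cyld each had 8.64, and Map3k14, the kinase of the noncanonical branch, had 8.55. None of these 8 highest peaks held TNGCGTG in its window or overlapped an AHR KO peak, and all 8 were CA repeats. In the list, 88.7% of the top 10% of peaks were CA repeats, 2.84% of windows held TNGCGTG, and 8.66% of peaks with a score of at least 6.99 were shared, so these counts are near the background.

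Peaks near the start did occur elsewhere in the pathway. The highest peak of the receptor gene Tlr4 lay 0.377 kb upstream of its start and that of the chemokine gene Ccl20 0.354 kb upstream, each with a score of 7.64, and promoter peaks were also found at Map3k14, Cyld, Tnip1 and Sod2. AHR KO peaks lay in the spans of Cyld, Tlr4, Traf5 and Myd88, and at the adaptor genes Traf5 and Myd88 the highest wild type peak, with scores of 7.37 and 6.13, was itself shared. Neighbouring genes share sites, since Birc2 and Birc3 had the same highest peak (7.97), as did Cxcl1 and Cxcl2 (5.58).

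**Figure D5:**
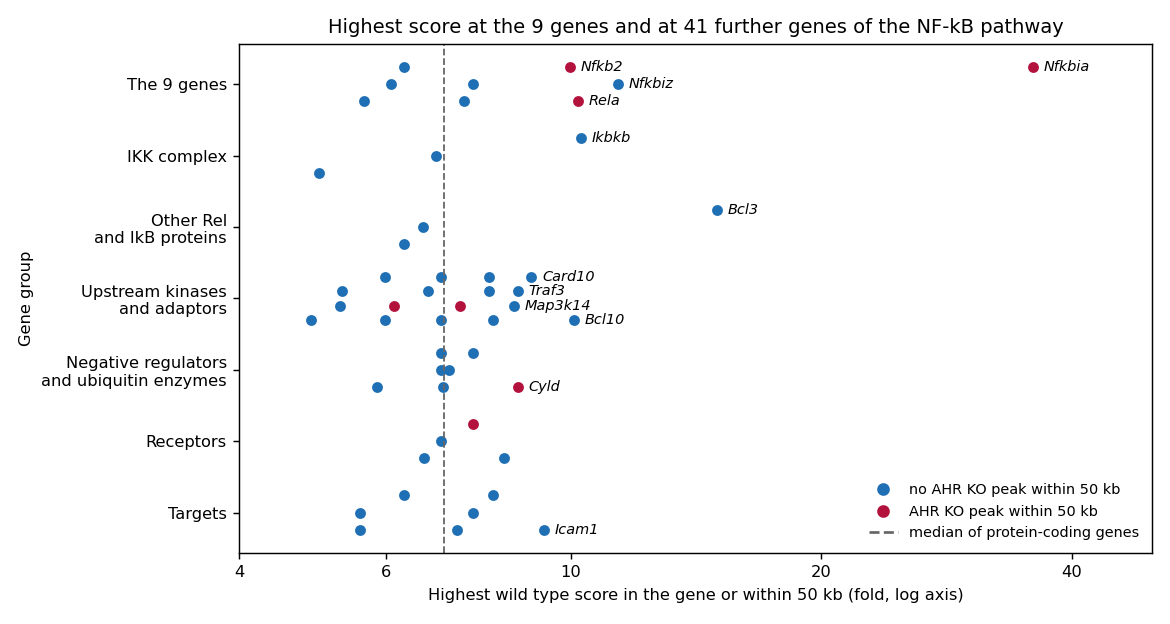
Highest wild type score in the gene or within 50 kb (x axis, log scale) for the 9 genes and for 41 further genes of the pathway by role (y axis; vertical spread within a role is for legibility only). Red marks genes with an AHR KO peak anywhere in the span, which at Nfkbia is another site than the highest one, and the dashed line is the median of protein-coding genes, 7.05. Nfkbia at 35.9 and Bcl3 at 15 are the highest.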

How the data were processed

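AHR was immunoprecipitated from FICZ-treated wild type and AHR KO colon organoids, with inputs. The authors aligned reads to mm10 (the sequence of GRCm38) with BWA 0.7.15, marked duplicates with Picard 2.1.1 and called peaks with MACS2 2.1.1 against input, versions as in the submitters' processing notes. The methods compare each ChIP with its input and intersect peaks across experiments with Bedtools, but whether the wild type list is a union, an intersection or a call on pooled reads is not given in the sources used here. The score deposited by the authors is, from its values, a ratio (fold enrichment with 1 added to pileup and background). It ranks peaks within a list, and read depth per library was not analysed here.

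Peaks on chromosomes 1 to 19, X and Y were kept for ranks and sequence, so that 286 peaks of the wild type and 58 of the AHR KO list on other sequences did not enter. Overlap counted from 1 bp. Starts have 1 added to the deposited positions. Distances run from the peak midpoint to the gene start in GENCODE M21. Background depth was read from the step of the scores, 0.332 in wild type (51.7% of peaks) and 0.777 in AHR KO (17.7%). Soft-masking is the lower case of the RefSeq GRCm38 sequence, and words were counted on both strands in 200 bp windows. Multi-mapping reads, which bear on repeats, were handled in a way not given in the sources used here. Word, span and step counting was tested on planted data. numpy 2.4.6, pandas 2.3.3 and scipy 1.17.1 were used.

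The genes, gene lists and alternatives were chosen with earlier results of these data known. No test was run, since the lists hold no replicates and the members were chosen on their scores. Named were each member's highest and nearest peak, promoter, TNGCGTG, AHR KO and low-masked peaks, and the 8 highest of the 41 further genes with those that had an AHR KO peak. Further genes named for promoter peaks or a shared highest peak were chosen after their values were seen. The rule for sequences covered the highest Nfkbia peak, promoter peaks and peaks with TNGCGTG, and the other windows printed were chosen after their values were seen. The sequences of some peaks are not reported here.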

Additional observations from a re-analysis of the deposited data

How the results depend on the processing

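Of 24 alternative values, 11 were counted as the same and 13 moved, by more than 1.5 times for counts or outside the 95% interval for shares. The number of wild type peaks in the spans went from 63 to 12 with 10 kb on either side and to 110 with 100 kb. It was 11 in the top 10% of scores, and, in settings chosen after seeing the data, 29 for peaks nearest to the member itself, 29 without a CA repeat and 11 at the score that gives the median AHR KO pileup. The density fell from 56.7 to 30.7 peaks per Mb with 10 kb, where protein-coding genes had 45.3, and to 9.9 in the top 10%, where the assembled chromosomes had 4.54. With 10 kb there was no AHR KO peak (0) and no wild type peak at Nfkbia, so its highest score has no value with that span. A promoter of 2 kb on either side gave 1 gene, Nfkb1, by a shorter transcript, against 25% of protein-coding genes. The core GCGTG in place of TNGCGTG gave 27.0%, and a masked limit of 75% gave 54.0%. Genes of the wider list with a top 10% peak fell from 19 to 8 with 10 kb (19.5%, against 23.0% of all genes). Counts change with the number of peaks a setting admits, and the cause of the lower density with 10 kb was not tested. The effect of omitting single cultures was not computed, as peaks carry no culture of origin. No paired analysis was possible because the wild type list gives no value per library and AHR KO has 1 ChIP library.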

Other observations

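The RefSeq table of promoters (GRCm38.p6, the bases just around each start) held 9 entries for 6 of the 9 genes, namely Nfkb2, Nfkbia, Nfkbib, Nfkbie, Rela and Tnfaip3. The kB consensus occurred in 6 of the 9 entries, from Nfkb2, Nfkbia, Nfkbie and Tnfaip3, against 4.51% of all 32851 entries. GCGTG occurred in 5 of the 9, from Nfkb2, Nfkbie and Tnfaip3, against 32.4%, and TNGCGTG in 0 of the 9, against 5.07%. Nfkb2 and Tnfaip3 have several entries each, which are not independent. None of these genes had a wild type peak at a promoter, so the words are described for the sequence alone.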
